A study of Mus musculus with 2 samples.

Results

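The genes described here are the colony-stimulating factors Csf1, Csf2 and Csf3, the interleukin-1 (IL-1) family cytokines Il1a, Il1b, Il33 and Il1rn, the receptors Il1r1 and Il1rl1, and the cytokine gene Tnf. They were picked by gene symbol with their reads in these libraries known, and they are 10 of 55573 genes listed. Their expression was measured by RNA-seq in the mesenteric artery, the resistance arteries of the gut, of wild-type C57BL/6 mice at 10 weeks of age. One library came from arteries in 5 mM K+ solution (control) and the other from arteries depolarized in 60 mM K+ solution, both for 60 min by the labels, and tissue of 2 mice was pooled for each. The comparison asks which genes a sustained depolarization of the vessel wall induces, which the study calls excitation-transcription coupling. By the study's supplementary methods, control tissue was taken from the distal side of the arterial bed. The remainder was then perfused with 60 mM K+. On that account vessel segment, time outside the body and the added perfusion cannot be told apart from K+. The study's main text instead has either solution perfused for the same time. All solutions held tetrodotoxin, a blocker of nerve sodium channels, and connective tissue was removed from the arteries. Each condition has 1 library, so no difference could be set against the spread between replicates, and p-values are not printed for these genes.

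Colony-stimulating factors are secreted proteins that drive the growth, survival and activation of myeloid cells. Csf1 (M-CSF) sustains macrophages through the receptor Csf1r, Csf2 (GM-CSF) acts on granulocytes and macrophages, and Csf3 (G-CSF) drives neutrophil production and release. In the IL-1 family, Il1a and Il1b signal through Il1r1 paired with the accessory protein Il1rap and the adaptor Myd88, Il1rn encodes the secreted antagonist of the same receptor, and Il33 is a nuclear alarmin whose receptor is Il1rl1 (ST2). Tnf signals through Tnfrsf1a and Tnfrsf1b, and both IL-1 and TNF turn on NF-kB target genes in vascular cells, among them colony-stimulating factors, chemokines and leukocyte adhesion molecules.

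The members fell into an abundant and a scarce class. Csf1, Il1r1 and Il33 held 99.1% of the 1945 control reads on the 10 genes and 96.2% of the 3850 depolarized reads. Levels are given as FPKM, fragments per length of gene and per number of mapped reads, with 95% Poisson intervals. Fold changes are ratios of reads, after TMM scaling (a trimmed mean of M-values, from edgeR), with 95% Clopper-Pearson intervals. Both kinds of interval cover counting error only. In bulk tissue, a change in the number of cells of a type and a change in RNA per cell cannot be told apart. Of the 10 genes, 9 had the higher scaled read count in 60 mM K+ and 1, Il1rl1, the lower. The 9 include Il1a, whose 5 reads in each library differ only through the scaling, and Il1rn, with 0 reads and 1. Scaled by total reads, Il1a was lower in 60 mM K+, at -0.11 on the log2 scale. Over the 14829 genes that reach 10 reads in sum, 49.6% were higher in 60 mM K+. A gene was called when the random-sampling test of DEGSeq, recomputed on the reads, gave a q-value under 0.005 and log2(fold-change) was above 1 or below -1. This test compares the 2 libraries, not the conditions. By this rule 3 of the 10 genes (Csf1, Csf3 and Il1r1) were called up and 0 were called down, where 2.11% of 21374 genes with a read were called up and 1.1% were called down. Nothing is read from either count of the 10 genes, because they were chosen with these values in view. The study, which names DEGSeq and the same thresholds, lists fewer genes in each direction than were called here. Its list holds Csf1 but neither Csf3 nor Il1r1. Myd88, Casp4, Rhbdf2, Tnfrsf1b and Cxcl5, called below, are among the other genes absent from it. The cause of this difference was not tested. With libraries scaled by total reads, every log2(fold-change) was 0.21 lower, only Csf3 of the 10 stayed called, and the calls over all genes went from 452 up and 235 down to 307 up and 542 down.

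**Figure D1:**
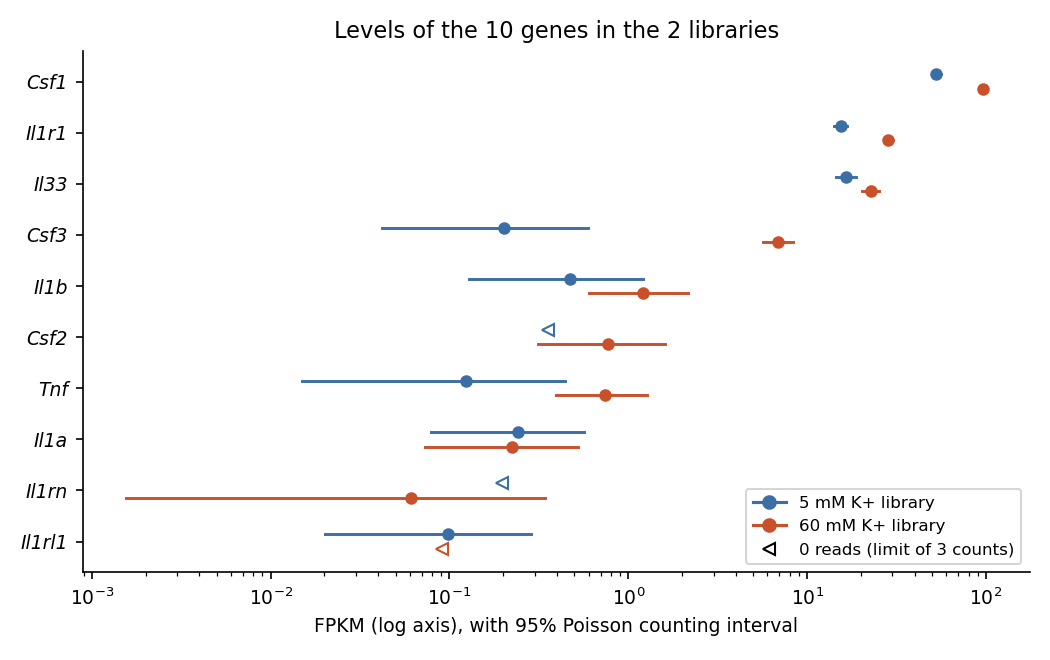
FPKM (log axis) of each of the 10 genes in the 5 mM K+ library (blue) and the 60 mM K+ library (red), with 95% Poisson counting intervals. Open triangles mark libraries with 0 reads, placed at the level of 3 counts. Csf1, Il1r1 and Il33 lie above 10 FPKM in both libraries, Csf3 rises from 0.203 to 6.90 FPKM, and the intervals of Il1a overlap almost entirely.

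Among the colony-stimulating factors, Csf3 (ENSMUSG00000038067, mm9 chromosome 11, 98562577 to 98564943, plus strand) showed the largest fold among the members with reads in both libraries. Only 3 of its reads came from control tissue, against 110 from depolarized tissue. Its level went from 0.203 FPKM (0.0418 to 0.592) to 6.90 FPKM (5.67 to 8.31). The intervals lay far apart, and Csf3 moved from the scarce class to the fourth most abundant member. The log2(fold-change) was 5.30 (3.71 to 7.60), a 39.3-fold rise whose interval ran from 13.1 to 194, because the control value rests on 3 reads. This was rank 3 among 14829 genes whose reads in both libraries summed to at least 10.

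Csf1 (ENSMUSG00000014599, mm9 chromosome 3, 107543966 to 107563387, minus strand) was the most abundant member in both libraries. It had 1101 reads in control and 2175 reads in 60 mM K+. In FPKM this was 52.8 (49.7 to 56.0) and 96.9 (92.8 to 101). The gene was already well expressed in control arteries, and its 2.12-fold rise (1.97 to 2.28, log2(fold-change) 1.08) was far smaller than that of Csf3 but rested on many more reads. The lower end of its log2 interval, 0.98, lay just under the threshold of 1, and with total-count scaling the value was 0.87 and the gene was not called. Per length, Csf1 was 261 times as abundant as Csf3 in control (interval 89.0 to 1266) and 14.0 times in 60 mM K+ (11.6 to 17.2). This ratio is taken within a library, so it does not depend on how the libraries were scaled.

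Csf2 (ENSMUSG00000018916, mm9 chromosome 11, 54060773 to 54063169, minus strand) had 0 reads in control, which allows a level up to 0.358 FPKM, and 7 reads in 60 mM K+, or 0.775 FPKM (0.312 to 1.60). Transcripts were therefore seen only in the depolarized library, at a depth where 0 and 7 reads are separated by a fold whose interval starts at 1.55 and has no upper end. Against a floor of 3 counts in control the ratio was 2.50, a value that does not cover the error of the 7 reads. Csf2 was not called at a q-value of 0.005 and was called at 0.05. Its exons share 96 bases with Gm12223 on the opposite strand, a gene with 1 read in control and 0 in 60 mM K+, and with no strand setting stated, reads in the overlap cannot be told apart.

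No receptor of these factors was called, nor was Il34, the other ligand of Csf1r. Of 6 genes in this list, 5 had at least 10 reads, and the median log2(fold-change) was -0.08, beside -0.0047 over all 14829 genes. Il34 had the most reads of the list, 202 in control and 178 in 60 mM K+, a log2(fold-change) of -0.08 (-0.38 to 0.22). Csf1r had 62 and 34 reads, a log2(fold-change) of -0.77 (-1.41 to -0.14) that was not called. Per length, Csf1 was 2.74 times as abundant as Il34 in control (2.36 to 3.20) and 6.15 times in 60 mM K+ (5.28 to 7.21). It exceeded Csf1r by 18.2 times in control (14.1 to 24.0) and by 65.7 times in 60 mM K+ (46.9 to 95.2), so both ratios moved beyond their counting intervals. The receptor of Csf3, Csf3r, had 1 read in each library. Csf2ra, the ligand-binding chain for Csf2, had 105 reads in control and 85 in 60 mM K+. The beta chain gene Csf2rb went from 9 to 16 reads and Csf2rb2 from 35 to 52, values that are uncertain because the genes are close paralogs.

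**Figure D2:**
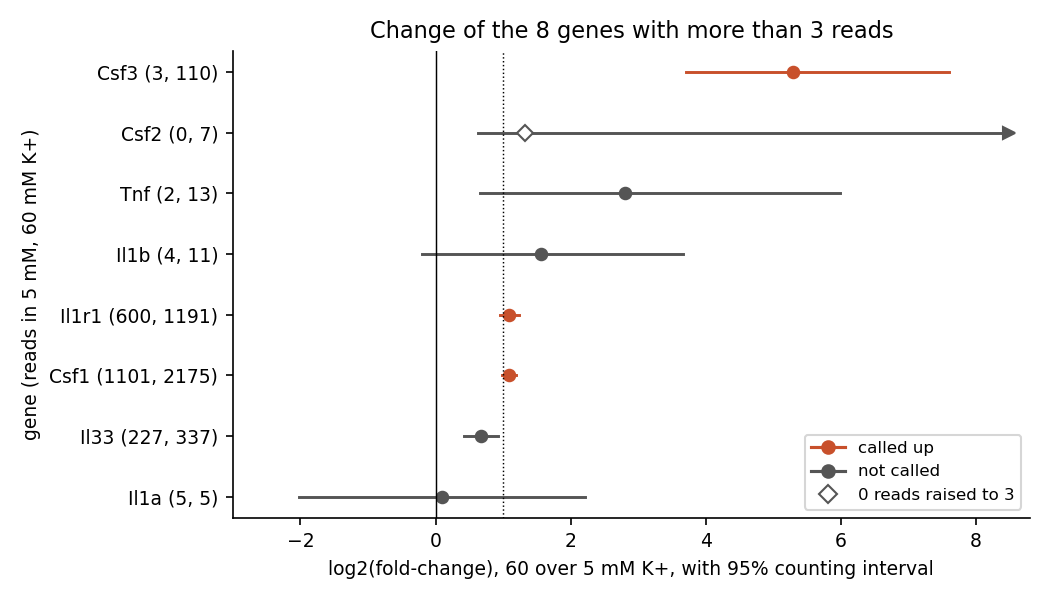
Log2(fold-change) of 60 mM over 5 mM K+ with 95% counting intervals for the 8 genes with more than 3 reads, the reads in each library given in parentheses. The dotted line marks the threshold of 1, red marks called genes and the diamond shows Csf2 with its 0 reads raised to 3. Csf3 lies apart at 5.30, Csf1 and Il1r1 lie just past the threshold with narrow intervals, and the intervals of Il1b and Il1a include 0.

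On the IL-1 side, the receptor was the member that was called. Il1r1 (ENSMUSG00000026072, mm9 chromosome 1, 40281925 to 40373043, plus strand) had 600 reads in control and 1191 in 60 mM K+. Its level was 15.4 FPKM (14.2 to 16.7) and 28.5 FPKM (26.9 to 30.1). The intervals did not overlap, and the fold, 2.13 (1.93 to 2.35), was close to that of Csf1. The log2(fold-change) of 1.09 had an interval of 0.95 to 1.23 that included the threshold, and was 0.88 with total-count scaling, where the gene was not called.

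The ligands of Il1r1 were scarce in both libraries. Il1a (ENSMUSG00000027399, mm9 chromosome 2, 129125346 to 129135708, minus strand) had 5 reads in each library, 0.242 and 0.224 FPKM, with a log2(fold-change) of 0.10 (-2.02 to 2.22). Il1b (ENSMUSG00000027398, mm9 chromosome 2, 129190306 to 129196875, minus strand), 54.6 kb from Il1a, had 4 reads in control and 11 in 60 mM K+. These are 0.472 FPKM (0.129 to 1.21) and 1.21 FPKM (0.602 to 2.16), and the log2(fold-change) of 1.56 had an interval of -0.19 to 3.67. For both ligands no difference was detectable at this depth, and for Il1a the interval reaches past 2 on the log2 scale in either direction. The antagonist gene Il1rn (ENSMUSG00000026981, mm9 chromosome 2, 24192373 to 24207014, plus strand) had 0 reads in control, which allows 0.197 FPKM, and 1 read in 60 mM K+. No fold is given for it. An opposite-strand gene shares 222 exon bases with Il1a (Gm14023, 1 and 0 reads) and another shares 25 with Il1b (Gm14047, 0 reads in both).

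Il33 (ENSMUSG00000024810, mm9 chromosome 19, 29999604 to 30035194, plus strand) was the most abundant ligand of the IL-1 family. It had 227 reads in control and 337 in 60 mM K+, levels of 16.5 FPKM (14.4 to 18.8) and 22.8 FPKM (20.4 to 25.3). The difference, 1.59-fold (1.34 to 1.89), exceeded counting error, and its log2 value of 0.67 (0.42 to 0.92) lay below the threshold. The Il33 receptor gene Il1rl1 (ENSMUSG00000026069, mm9 chromosome 1, 40486415 to 40522260, plus strand) had 3 reads in control, 0.0980 FPKM, and 0 in 60 mM K+, which allows 0.0910 FPKM. Il1rl1 lies 113 kb from Il1r1, and with both libraries at or under 3 counts no fold is given.

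In control the order by FPKM was Csf1, then Il33 and Il1r1, whose intervals overlapped, and then the scarce genes from Il1b downward, which could not be ordered because neighbouring intervals overlapped throughout. In 60 mM K+ the first 4 places went to Csf1, Il1r1, Il33 and Csf3, each with an interval separate from the next, followed by Il1b, Csf2, Tnf, Il1a, Il1rn and Il1rl1, whose neighbouring intervals overlapped. By deposited FPKM, Il1r1 and Il33 therefore stood at like levels in control and at separate levels in 60 mM K+. These FPKM imply lengths of 3708 bases for Il1r1 and 1311 for Il33, where the longest annotated transcripts have 4829 and 2544. The intervals do not cover the choice of length, on which an order between genes depends. Csf3 left the group near the detection limit.

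Tnf (ENSMUSG00000024401, mm9 chromosome 17, 35336326 to 35338952, minus strand) had 2 reads in control and 13 in 60 mM K+. Its level was 0.123 FPKM (0.0149 to 0.444) and 0.742 FPKM (0.395 to 1.27). The fold was 6.97 with an interval from 1.58 to 63.6, and the log2(fold-change) of 2.80 (0.66 to 5.99) was not called at a q-value of 0.005 but was at 0.05. Tnf thus remained under 1.27 FPKM, the upper end of its interval, in both libraries.

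**Figure D3:**
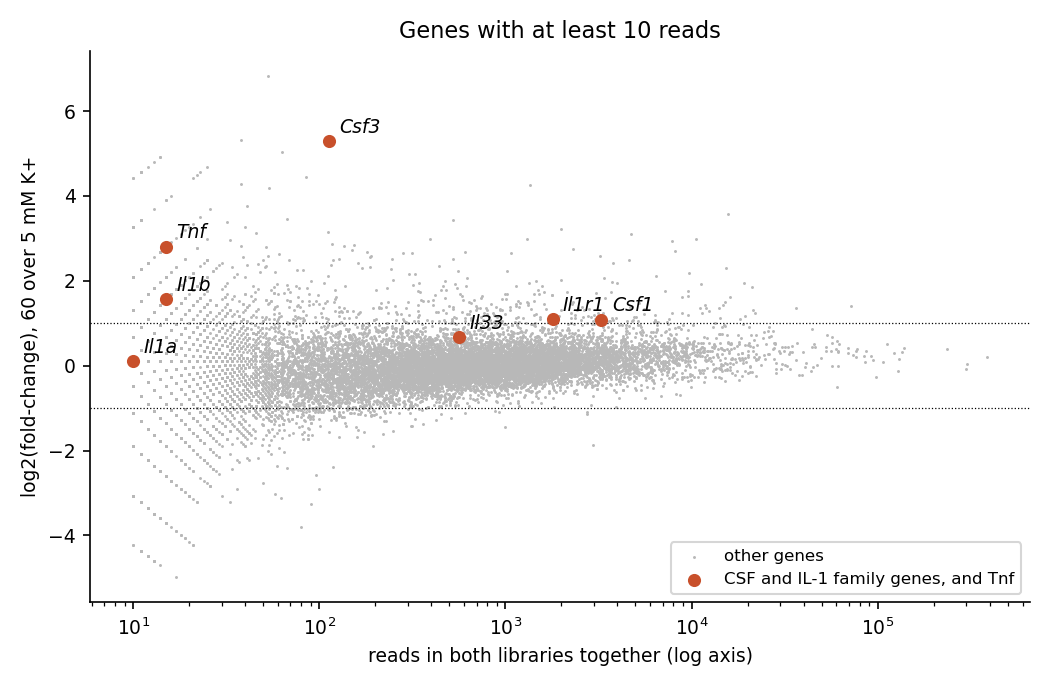
Log2(fold-change) of 60 mM over 5 mM K+ against the reads in both libraries together (log axis) for genes with at least 10 reads, with the 7 described genes that have as many in red, and with counts of 0 entered as 0.5. Dotted lines mark 1 and -1. Csf3 lies at the upper edge of genes of its depth, Il1r1 and Csf1 lie just above 1 among genes with many reads, and Il1b, Tnf and Il1a lie where few reads spread the values widely.

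The other IL-1 family genes gave little signal. Of 7 other ligand and binding protein genes, 4 had 0 reads in both libraries, and Il18bp, which encodes a binding protein of IL-18 and had the most reads, had 38 and 33. Of 8 other receptor genes, 3 had 0 reads in both libraries and 3 had at least 10 reads, none of them called, with a median log2(fold-change) of 0.45. Il1rap, the accessory chain of Il1r1, had 132 and 133 reads, a log2(fold-change) of 0.11 (-0.25 to 0.47). Per length Il1r1 exceeded Il1rap 3.47 times in control (2.87 to 4.22) and 6.83 times in 60 mM K+ (5.70 to 8.23), so the ligand-binding chain rose relative to the accessory chain. Sigirr, an inhibitory member of the family, had the most reads of this list, 145 and 207, with a log2(fold-change) of 0.61 (0.30 to 0.93). The decoy receptor gene Il1r2 had 4 and 5 reads, so that Il1r1 exceeded it 36.4 times in control and 57.8 times in 60 mM K+, with overlapping intervals.

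Downstream of the receptor, 1 of 13 signalling genes was called up, none was called down and the median log2(fold-change) was 0.10, or -0.11 with total-count scaling. The called gene was Myd88, the adaptor that links Il1r1 to the IRAK kinases. It had 383 and 793 reads, a log2(fold-change) of 1.15 (0.97 to 1.33). With total-count scaling its value was 0.94, and no gene of the list was called. Peli2, a ubiquitin ligase of the IRAK proteins and the gene with the most reads of the list, had 1446 and 1525 reads, with 0.18 as its log2(fold-change).

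Of 14 genes that process or release these cytokines, 10 had at least 10 reads, 2 were called up and none was called down, with a median log2(fold-change) of 0.22. Casp4, the non-canonical inflammasome caspase, had 142 and 426 reads, a log2(fold-change) of 1.69 (1.41 to 1.97). Rhbdf2 (iRhom2), which escorts the TNF sheddase Adam17 to the cell surface, had 505 and 1037 reads, a log2(fold-change) of 1.14 (0.98 to 1.30). With total-count scaling Casp4 stayed called, and Rhbdf2, at 0.93, did not. Adam17 itself went from 565 to 467 reads, at a log2(fold-change) of -0.17. Casp1, which cleaves the Il1b precursor, had 51 and 63 reads, and the sensor gene Nlrp3 had 3 and 1. Capn2, a calpain subunit, had the most reads of the list, 2685 and 3116.

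Of 8 genes for TNF locus ligands, TNF receptors and adaptors, 6 had at least 10 reads, 1 was called up and none was called down, with a median log2(fold-change) of 0.47. Tnfrsf1b, the second TNF receptor, had 173 and 346 reads, a log2(fold-change) of 1.10 (0.83 to 1.37). Scaling by total counts put it at 0.89, and then no gene of the list was called. Tnfrsf1a, with the most reads of the list, stood at 1352 and 1964 reads, at a log2(fold-change) of 0.64 (0.54 to 0.74). Per length Tnfrsf1a exceeded Tnfrsf1b 19.4 times in control (16.6 to 22.9) and 14.1 times in 60 mM K+ (12.6 to 15.9), so the receptors moved closer to each other. The lymphotoxin gene Lta beside Tnf had 0 reads in control and 1 in 60 mM K+, and Ltb had 1 read in each.

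Genes that IL-1 and TNF are known to induce in vessel cells formed the pathway list with the highest median of the 7. The list was compiled with earlier results of these libraries known and is not independent evidence of a direction. Of 24 genes, 22 had at least 10 reads, 19 were called up and none was called down, with a median log2(fold-change) of 2.18 (1.97 with total-count scaling). The adhesion molecule gene Vcam1 had the most reads, 2740 in control and 12580 in 60 mM K+, a log2(fold-change) of 2.30, and Icam1 had a value of 2.94 and Sele of 4.26. The chemokine genes Cxcl1, Cxcl2, Ccl2 and Ccl7 had values of 3.11, 2.98, 2.98 and 2.67, and Cxcl5 went from 0 to 53 reads. Il6 and Lif, cytokines of the IL-6 family, had values of 2.42 and 2.06. The NF-kB inhibitors Nfkbia and Tnfaip3 had values of 1.62 and 2.59, the NF-kB regulator Bcl3 had 2.65 and the NF-kB subunit gene Relb had 1.46. The remaining called genes were Ptgs2 (1.47), Birc3 (1.13), Traf1 (1.05), Zc3h12a (1.67) and Lcn2 (1.36). The genes with at least 10 reads that were not called were Nfkbiz, Nfkb1 and Nfkb2, at 0.90, 0.90 and 0.94. In 60 mM K+ Vcam1 stood at 411 FPKM, beside 1.21 for Il1b and 0.742 for Tnf. RNA-seq does not measure the ligand proteins, and whether IL-1 or TNF induced these genes was not tested. With total-count scaling 17 of the 19 genes stayed called, and Birc3 (0.92) and Traf1 (0.85) were lost.

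**Figure D4:**
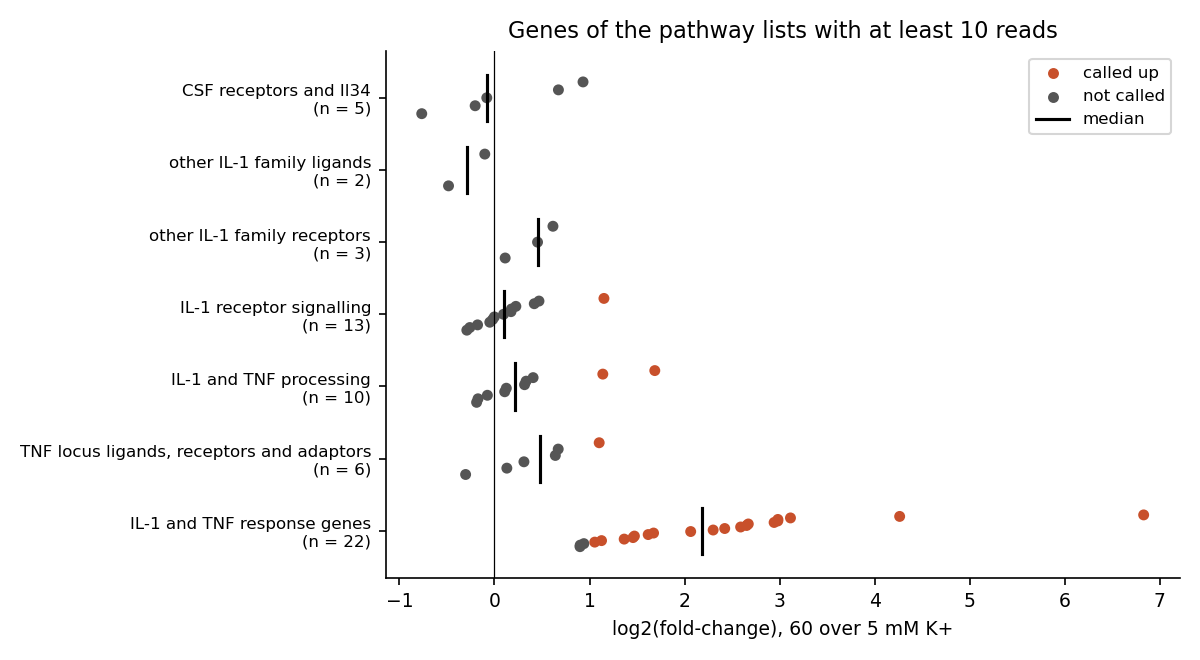
Log2(fold-change) of 60 mM over 5 mM K+ for each gene with at least 10 reads in the 7 pathway lists, with counts of 0 entered as 0.5, called genes in red and the median of each list as a black bar. Medians of the first 6 lists lie between -0.29 and 0.47, and that of the response genes lies at 2.18. The rightmost point is Cxcl5, with 0 reads in control.

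The cell types that could carry these transcripts were followed by fixed marker lists. Neutrophil markers were at or near 0 in both libraries: 7 of 9, including Ly6g, S100a9 and Retnlg, had 0 reads in both, and the list summed to 2 reads in control and 0 in 60 mM K+. Macrophage markers were present in both (12 of 12 with reads) at 73.0 and 63.6 CPM (reads scaled to a library of 1000000) in all. Of the 11 with at least 10 reads, 5 lay above 0, and the median log2(fold-change) was -0.04. Only Lyve1, which lymphatic endothelium also expresses, was called down (318 and 135 reads, log2(fold-change) -1.13). With TMM scaling its fall in CPM was larger than that of the whole list, so the other macrophage markers together did not fall. Total-count scaling lowers every log2 value by 0.21, and under it this does not hold. Mast cell markers summed to 2.57 and 3.24 CPM, with Fcer1a and Ms4a2 at 0, T cell and innate lymphoid markers to 1.69 and 0.667, and mesothelial markers to 0.355 and 0.571. Endothelial markers summed to 3648 and 4974 CPM. None of 10 was called, but 9 lay above 0 and the median log2(fold-change) was 0.39. Fibroblast markers summed to 7593 and 6422 (median -0.18) and smooth muscle markers to 37097 and 41085 (median 0.23). The labelled tissue thus carried its defining markers in both libraries. Adipocyte markers summed to 89.6 CPM in control and 42.3 in 60 mM K+, with Adipoq (log2(fold-change) -1.04), Plin1 (-2.39) and Cfd (-1.07) called down of 6 genes, or 4 of 6 with total-count scaling. Lep alone went the other way, with 1 read in control and 9 in 60 mM K+. Its log2 value was 3.27 (0.42 to 8.73), and it was called up only at a q-value of 0.05. Pancreas and intestine markers summed to 11.6 and 37.0 CPM, or 131 and 389 reads, with Pnlip (2 and 61 reads), Cela2a (3 and 51) and Ctrb1 (21 and 129) called up. These marker differences could be of tissue make-up or of RNA per cell, which cannot be told apart here. Their part in the values of Csf3 and the other members was not tested.

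The members lie on 6 chromosomes. Within 100 kb of a member there were 24 genes with at least 10 reads, with a median log2(fold-change) of -0.015. Of these, 0 were called up and 2 were called down. Over all 14829 genes with at least 10 reads, 452 were called up and 235 down, so the absence of a called-up gene among 24 is not read as a result. Med24, a Mediator subunit gene 0.962 kb from Csf3, had 458 reads in each library. Psmd3, a proteasome subunit gene 5.28 kb away on the other side, had 750 and 776 reads, and the thyroid hormone receptor gene Thra, 37.0 kb away, had 1140 and 841. Nr1d1, which encodes the clock repressor REV-ERB alpha 64.3 kb from Csf3, was called down with 2361 and 606 reads, a log2(fold-change) of -1.86. Around Tnf 12 genes were measured, and Atp6v1g2, a proton pump subunit gene 31.7 kb away, was called down at 42 and 15 reads, its log2(fold-change) being -1.38 (-2.34 to -0.50). The nearest such gene to Il1r1 was the receptor gene Il1rl2, 8.43 kb away, at 29 and 37 reads (log2(fold-change) 0.45, interval -0.29 to 1.21).

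**Figure D5:**
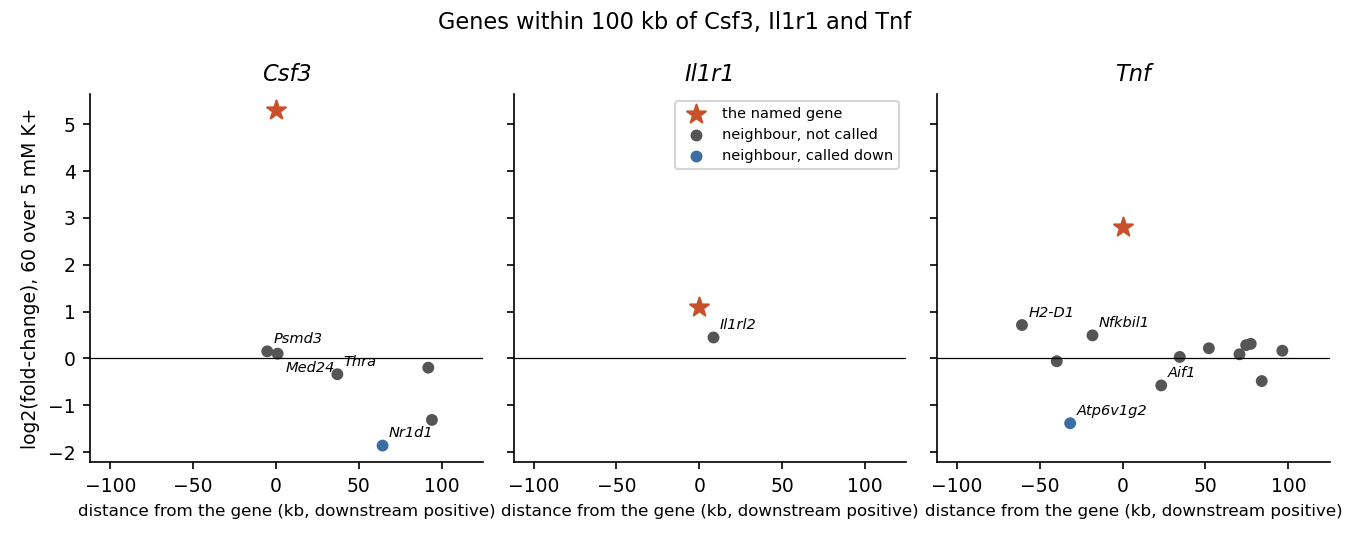
Log2(fold-change) of genes with at least 10 reads within 100 kb of Csf3, Il1r1 and Tnf, against the distance in kb from the nearest end of the named gene (star), downstream being positive. Blue marks the genes called down. Csf3 stands at 5.30 over neighbours between -1.86 and 0.15.

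Promoter sequence from RefSeq (build GRCm38.p6) was at hand for 9 of the 10 genes, 14 windows in all, each reaching from 250 bases before to 50 bases after an annotated start, and Csf3 had no entry. Each window was searched on both strands for the full cAMP response element (CRE, TGACGTCA), its core TGACG, the AP-1 site TGANTCA and the NF-kB consensus. Over 32851 promoters of the same length, 1.79% held the full CRE, 20.8% its core, 7.81% the AP-1 site and 4.51% the NF-kB consensus. Every full CRE also counts as a core match. No window of the 9 genes held a full CRE. Il1rl1 and the first Il1r1 window held the core, Il1a and Il1rn held an AP-1 site, whose pattern is the same read on either strand, and Csf1 and the second Il1r1 window held an NF-kB match. Windows of Csf2, Il1b, Il33 and Tnf held none of these letters. The windows of Csf1 and Il1r1 are shown because these are the called genes with an entry, with the match in capitals. The NF-kB match of Csf1 lies at -154 to -145 from the start, that of the second Il1r1 window at -232 to -223, and the core CRE of the first Il1r1 window at -23 to -19, all 3 reading on the reverse strand.
Csf1, chr3:107760420-107760719, minus strand: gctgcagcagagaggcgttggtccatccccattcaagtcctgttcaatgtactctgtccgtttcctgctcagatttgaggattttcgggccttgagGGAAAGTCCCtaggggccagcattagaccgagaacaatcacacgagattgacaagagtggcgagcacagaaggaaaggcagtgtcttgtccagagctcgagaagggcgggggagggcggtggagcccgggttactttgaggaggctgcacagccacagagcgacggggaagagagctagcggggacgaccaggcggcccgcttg
Il1r1, chr1:40224830-40225129, plus strand: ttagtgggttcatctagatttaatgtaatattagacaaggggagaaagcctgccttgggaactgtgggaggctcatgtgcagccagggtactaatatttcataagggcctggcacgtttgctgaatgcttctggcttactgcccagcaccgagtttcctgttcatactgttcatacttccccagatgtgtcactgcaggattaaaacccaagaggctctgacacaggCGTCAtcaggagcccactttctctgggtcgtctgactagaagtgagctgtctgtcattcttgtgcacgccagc
Il1r1, chr1:40266336-40266635, plus strand: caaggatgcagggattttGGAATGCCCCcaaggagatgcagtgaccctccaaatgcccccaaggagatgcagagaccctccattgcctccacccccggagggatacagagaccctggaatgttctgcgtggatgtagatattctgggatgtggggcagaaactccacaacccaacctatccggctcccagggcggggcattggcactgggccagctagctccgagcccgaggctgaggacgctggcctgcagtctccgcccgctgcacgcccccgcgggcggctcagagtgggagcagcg
These coordinates are of another build than the mm9 positions given above. A match of letters in these windows is a description of the sequence and not a bound site.

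Transcript ends also set members apart. AU-rich elements in a 3′ UTR mark many short-lived cytokine transcripts. The nonamer TTATTTATT occurred in the annotated 3′ UTR (GENCODE vM1) of 6.51% of 20007 genes. Csf2 had 4 copies in 317 bases, a number that 0.205% of genes reach, and Tnf had 5 in 764 bases, a number that 0.125% of genes reach. The other 8 members had 0. The shorter pentamer ATTTA occurred 9 times in Csf2, 8 times in Tnf, 8 times in Il1r1, 6 times in Csf3, 4 times in Csf1 and in Il1b, 3 times in Il1a, Il1rl1 and Il33 and 0 times in Il1rn, where the median gene had 1. The carriers of the nonamer, Csf2 and Tnf, were among the scarce members in both libraries. So were Il1a, Il1b, Il1rl1 and Il1rn, which carried none. The called members Csf1, Csf3 and Il1r1 carried none either. Csf2 and Tnf had 7 and 15 reads in both libraries together, a depth that limits any call. A link of the nonamer to level or call among the members was not tested.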

How the data were processed

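RNA was extracted from mesenteric arteries, and poly-A libraries were sequenced, 1 per condition. TopHat2 aligned the reads to mm9, and the authors deposited unnormalized counts per gene beside FPKM values. The submitters' processing notes name TopHat2 2.0.12, HTSeq 0.6.1, edgeR 3.0.8, mm8 and mm9 without saying which step used which build. For the counting annotation and strand setting, nothing was given in the sources used here. Reads per FPKM differed between the libraries by a factor of 1.08 for every gene, the ratio of total reads (10480918 in 5 mM and 11289598 in 60 mM K+), so the deposited FPKM were scaled by total reads. Symbols and mm9 positions came from GENCODE vM1, which named 32601 of 55573 listed genes, holding 99.1% of reads in each library.

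TMM effective sizes (11266853 and 10502077) came from edgeR 4.0.16 (R 4.3.3). Counts of 0 were entered as 0.5, and the floor was 3 counts. The random-sampling test was recomputed with Benjamini-Hochberg adjustment on genes with a read, because the quasi-likelihood fit of edgeR cannot be fitted without replicates. The test was tried on simulated counts with counting error only, the error that it assumes. That trial held no spread between libraries and says nothing about differences between replicates. Other scalings (DESeq2 1.42.0 size factors among them), tests and filters were tried as alternatives.

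The members and lists were chosen with earlier results of these data known. By rule, the text names all members, list genes that passed both thresholds, the list gene with the most reads and called genes within 100 kb of a member. The marker genes with the most reads were Acta2 (smooth muscle), Pecam1 (endothelium), Lyve1 (macrophage), Col3a1 (fibroblast), Cfd (adipocyte), Cpb1 (pancreas), Cpa3 (mast cell), Gata3 (lymphoid) and Wt1 (mesothelial), with S100a8 and Cxcr2 of the neutrophil genes tied at 1 read. Other list genes and neighbours were named for their role after their values were seen.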

Additional observations from a re-analysis of the deposited data

How the results depend on the processing

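No paired analysis was possible because there was a single library on each side, and for the same reason no library could be left out. The number of the 10 genes called up was 3 with TMM and stayed 3 with median-of-ratios or upper-quartile scaling, the exact binomial test, an assumed coefficient of variation between libraries of 0.1 and both filters on low counts. It was 1 with total-count scaling, 1 with an assumed coefficient of variation of 0.2 and 1 with the threshold on the nearest end of the counting interval, Csf3 each time, 0 with a coefficient of variation of 0.4, and 5 with a q-value of 0.05, where Csf2 and Tnf were added. The log2(fold-change) of Csf1 was 0.87 with total counts, 0.87 from FPKM with a pseudocount of 0.1 and 0.86 with a pseudocount of 1, that of Il1r1 was 0.88, 0.88 and 0.84, and that of Csf3 was 2.71 with a pseudocount of 1, which shrinks the folds of low genes by construction. Over all genes, 452 were called up and 235 down, against 307 and 542 with total counts, 349 and 58, 65 and 8, and 0 and 0 with coefficients of variation of 0.1, 0.2 and 0.4, 261 and 62 by the nearest end of the interval, and 626 and 506 at a q-value of 0.05. Of 53 values of the members under alternatives, 5 changed sign: Il1a at 5 and 5 reads in 3 of them, and Il1rl1 and Il1rn with their 0 raised to 3. Of the 19 response genes called up, 17 were called with total counts, 16 by the nearest end of the interval, 12 with a coefficient of variation of 0.2 and 0 with 0.4, while Myd88, Rhbdf2 and Tnfrsf1b were called under none of these 4 settings. The median of genes near the members was -0.060 within 50 kb and 0.088 within 250 kb. Depth limits Csf2, Il1a, Il1b and Tnf, which had 15 or fewer reads in both libraries together, and Il1rn and Il1rl1, which had 3 or fewer.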

Other observations

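Farther from the members, 65 genes with at least 10 reads lay within 250 kb, of which 4 were called up and 2 down. Of all 14829 genes with at least 10 reads, 452 were called up and 235 down. Those called up were Cdc6, a DNA replication licensing gene 204 kb from Csf3 with 15 and 40 reads, Rara, a retinoic acid receptor gene 224 kb from Csf3 with 254 and 478 reads, and the heat shock genes Hspa1a and Hspa1b near Tnf, near-identical copies whose separate counts are uncertain.

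The AU-rich nonamer that Csf2 and Tnf carry was also counted over all genes with an annotated 3′ UTR and at least 10 reads. Of 11915 genes without the nonamer, 357 were called up (3.00%), of 757 with 1 copy 35 were called up (4.62%), and of 208 with 2 or more copies 15 were called up (7.21%). Median log2(fold-change) went the other way, 0.019, -0.045 and -0.065. The median 3′ UTR length rose with the number of copies, 1103, 2139 and 2610 bases, and its part in these shares was not tested.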
